A study of Camellia sinensis with 9 samples.

Results

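The guide arms of miR156 were followed through 3 organs of the tea plant, Camellia sinensis. The miR156 family stood in 21 of the 371 rows of the deposited miRNA table, and the 7 rows of its 5p arm were taken by name: csn-miR156a_5p, csn-miR156b_5p, csn-miR156c_5p, csn-miR156e_5p, csn-miR156g_5p, csn-miR156h_5p and csn-MIR156j_5p (the species prefix csn- is left out from here on). Rows of the same sequence held the same counts, so miR156b_5p was joined with MIR156j_5p and miR156c_5p with miR156e_5p, which left 5 of the 341 distinct sequences in the table. No row of another name held any of these 5 sequences, and no other row was named as a miR156 5p arm. Small RNA was sequenced from untreated plants in 3 libraries per organ, labelled root13, root23 and root33, flower1, flower2 and flower45, and leaf1, leaf23 and leaf41. The sources used here do not give the cultivar, the age of the plants or the stage of the organs. Nothing in the labels says that each library is a plant of its own, so a p-value here reflects only how these libraries vary, which may be technical. The table lists miRNAs, so the organ labels were not checked against organ marker genes.

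miR156 is a conserved plant miRNA that acts on the messages of SPL (SQUAMOSA promoter binding protein-like) transcription factors. In Arabidopsis it is abundant in young plants and declines with age, which releases SPL proteins that turn on genes of flowering and of a later miRNA, miR172. miR172 acts on AP2-like factors, several of which repress flowering, and miR535 is a relative of miR156 in sequence that is also known to act on SPL genes in rice.

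The 5 sequences are shown because they separate into a pair of seed groups, offset by 1 base, and because the organs differed in which of them they held. Capitals mark the seed, bases 2 to 8 counted from the 5′ end, and U is written where some rows had T.
miR156a_5p: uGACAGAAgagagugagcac
miR156b_5p/MIR156j_5p: uGACAGAAgagagugagcaca
miR156g_5p: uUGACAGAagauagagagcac
miR156c_5p/miR156e_5p: uUGACAGAagaaagagagcac
miR156h_5p: uUGACAGAagagagagagcac

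The first 2 share the seed GACAGAA, and the longer of them, at 21 bases, is the 20-base sequence with 1 further base at its 3′ end. The other 3, each of 21 bases, begin 1 base earlier and have the seed UGACAGA. Among themselves these 3 differ at a single base, with U12A from miR156g_5p to the sequence of miR156c_5p and miR156e_5p and U12G from miR156g_5p to miR156h_5p. Aligned with that offset, miR156a_5p differs from miR156h_5p by U14A alone, and from miR156g_5p by G11U and U14A (positions are those of miR156a_5p). All 5 begin with U and share the run UGACAGAAGA, which no other of the 341 sequences held (1.47% of them held it), and neither seed occurred outside the 5. The letters of miR156g_5p are those of the Arabidopsis miRNA called miR157. The names of these rows do not show from which locus a read came.

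Counts over the distinct sequences totalled 369605 to 662023 in root, 476517 to 530334 in leaf and 876770 to 1073284 in flower. Levels are given as CPM, the counts relative to these totals after TMM scaling, and sequences of 20 and 21 bases were compared without a correction for length or for how well each is captured. The TMM factor was 1.51 for root13, against 0.821 to 1.18 for the other libraries. This lowers every CPM of root13 relative to its share of the counts. The library leaf41 stood apart from the other leaf libraries. Over the 132 tested sequences its log2 CPM correlated at 0.777 and 0.812 with leaf1 and leaf23, and at 0.739 to 0.797 with the root libraries, against 0.607 to 0.680 for leaf1 and leaf23 with root. Leaf1 and leaf23 correlated at 0.95 with each other, the root libraries at 0.93 to 0.956 and the flower libraries at 0.94 to 0.963. Where a call between leaf and another organ depended on leaf41, the value without it is given too. In bulk tissue, fewer cells that hold a miRNA and less of it per cell cannot be told apart.

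Summed over the 5 sequences, the miR156 5p level was 14562, 15481 and 18064 CPM in root13, root23 and root33. It was 5887, 4234 and 3679 CPM in flower1, flower2 and flower45, and 4766, 6852 and 17330 CPM in leaf1, leaf23 and leaf41. All root libraries lay above all flower libraries, leaf41 lay among the root libraries, and leaf1 lay among the flower libraries. The order of the means was root (16036 ± 1815 CPM, SD, n = 3), leaf (9649 ± 6733) and flower (4600 ± 1148), and leaf overlapped with both neighbours. Without leaf41 the log2 ratio of the root mean to the leaf mean was 1.46 in place of 0.73, and that of flower to leaf was -0.34 in place of -1.07. As a share of the distinct miRNA counts, the 5 sequences took 1.37% to 2.20% in the root libraries, 0.309% to 0.531% in the flower libraries, and 0.492%, 0.744% and 2.05% in leaf1, leaf23 and leaf41. Leaf41 was thus the only leaf library within the root range by either measure.

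In flower, both sequences of seed GACAGAA were lower than in root and in leaf, miR156h_5p was higher than in both, and the sequence of miR156c_5p and miR156e_5p had no read. Of the 5 sequences, 4 passed an adjusted p of 0.05 between flower and root (3 lower and 1 higher in flower), where 39.4% of all 132 tested sequences did so (23.5% lower and 15.9% higher). Of the 3 lower, miR156c_5p/miR156e_5p was in the test only because root held it. Its call is thus no support for a difference of the family. Between flower and leaf, 3 passed (2 lower and 1 higher in flower), where 35.6% of all tested did so (18.9% lower and 16.7% higher). Under all 5 scalings 3 were called in each comparison (miR156a_5p, miR156b_5p/MIR156j_5p and miR156h_5p), against 37.9% of all tested for flower and root and 28.0% for flower and leaf. miR156c_5p/miR156e_5p was not tested with the authors' divisor. Without leaf41, 5 were called between flower and root, miR156c_5p/miR156e_5p among them (50.3% of all tested), and 2 between flower and leaf (45.5%). Adjusted p-values come from edgeR's quasi-likelihood test with Benjamini-Hochberg adjustment over the 132 sequences. The flower libraries did not overlap with root for any of the 5 (68.2% of all tested sequences were apart in this way), nor with leaf for 3 of them (47.0%). The 2 flower comparisons share the flower libraries, so they are not independent.

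**Figure D1:**
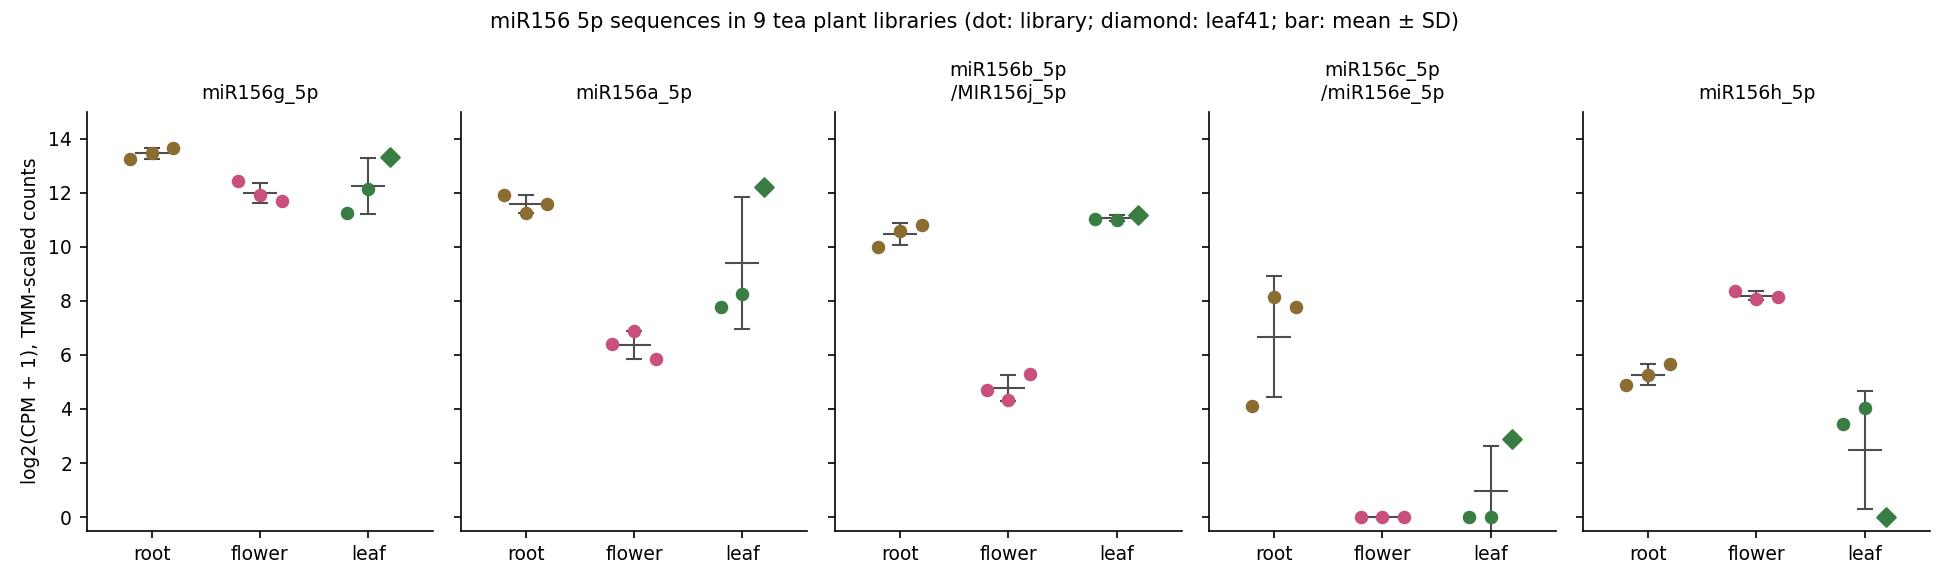
Levels of the 5 miR156 5p sequences by organ, as log2 of CPM plus 1 (y axis), with 1 dot per library, a diamond for leaf41, and the mean ± SD over 3 libraries as a bar. Flower is low for miR156a_5p and for miR156b_5p/MIR156j_5p and high for miR156h_5p, and leaf41 lies among or above the root libraries for miR156g_5p and miR156a_5p.

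The sequence of miR156b_5p and MIR156j_5p, the 21-base form of seed GACAGAA, had the largest difference of the 4 sequences with reads in all organs. It stood at 1027, 1519 and 1808 CPM in root13, root23 and root33, at 25.3, 19.3 and 38.1 CPM in flower1, flower2 and flower45, and at 2087, 2041 and 2331 CPM in leaf1, leaf23 and leaf41. The 3 leaf libraries, leaf41 included, differed little, and all lay above the root libraries. In raw counts the flower values were 21, 17 and 28 reads, against 1052 to 1462 in leaf. The log2 fold change of flower against leaf was -6.28 ± 0.66 (SE; adjusted p = 9.9e-05, edgeR), a 77.7-fold difference, and that of flower against root was -5.71 ± 0.64 (adjusted p = 0.000242), or 52.4-fold. The median log2 fold change of all tested sequences was -0.14 and -0.05 in these comparisons. Both calls were made under all 5 scalings tried and whichever single library was left out.

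miR156a_5p, the 20-base form, was also low in flower, but its leaf libraries disagreed. It stood at 3882, 2443 and 3045 CPM in root13, root23 and root33, at 83.2, 118.0 and 57.1 CPM in flower1, flower2 and flower45, and at 216.3, 301.5 and 4718 CPM in leaf1, leaf23 and leaf41. Leaf41 lay above all root libraries, while leaf1 and leaf23 lay far below the lowest of them. Flower against root gave a log2 fold change of -5.18 ± 1.23 (SE; adjusted p = 0.00785, edgeR), called under all 5 scalings and whichever library was left out. Flower against leaf gave -4.34 ± 1.18 (adjusted p = 0.0175), which was not called without leaf41 (-1.45 ± 0.59, adjusted p = 0.0743), although all flower libraries lay below all leaf libraries.

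miR156h_5p, of seed UGACAGA, was the member that was higher in flower. It stood at 328.2, 265.4 and 282.7 CPM in flower1, flower2 and flower45, at 28.6, 37.7 and 49.6 CPM in root13, root23 and root33, and at 9.92, 15.5 and 0 CPM in leaf1, leaf23 and leaf41. The counts behind these were 208 to 272 reads in flower, 16 to 23 in root, and 5, 8 and 0 in leaf. A count of 0 in leaf41 allows up to 3 counts, or 4.78 CPM, by counting error alone. The log2 fold change was 5.10 ± 1.10 for flower against leaf (SE; adjusted p = 0.00675, edgeR), called under all 5 scalings and whichever library was left out. For flower against root it was 2.91 ± 0.98 (adjusted p = 0.0377), called under all 5 scalings. That call was made without leaf1, leaf23 or leaf41, but it was lost when any 1 root or flower library was left out (log2 2.93 to 3.34, adjusted p = 0.0502 to 0.116). miR156h_5p differs from miR156g_5p at 1 base of 21 (U12G), and the sources used here do not say how reads of such close sequences were assigned.

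The sequence of miR156c_5p and miR156e_5p was found almost only in root. It had 9, 165 and 101 reads in root13, root23 and root33 (16.1, 282.6 and 217.9 CPM), none in any flower library, and 0, 0 and 4 in leaf1, leaf23 and leaf41. Root13 was thus far below the other root libraries, and its 9 reads were still above the 4 of leaf41. Against 3 counts per flower library (3.70 CPM on average), the root mean of 172.2 ± 139.0 CPM (SD, n = 3) was at least 46.5-fold higher, and root13 alone at least 4.35-fold. The adjusted p of flower against root was 0.00674 (edgeR). With the authors' divisor as library size, without root23 or root33, and in the root and leaf fit of only the 6 libraries compared, the low-count filter left this sequence out, so it was not tested there. It passed that filter through root alone, and such a sequence passes only if an organ holds it at some level. miR156h_5p, in contrast, also passed the filter in the root and leaf fit, which held no flower library.

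miR156g_5p was the most abundant of the 5 in all 9 libraries and the least different between flower and the other organs. It stood at 9608, 11199 and 12943 CPM in root13, root23 and root33, at 5450, 3832 and 3301 CPM in flower1, flower2 and flower45, and at 2452, 4494 and 10276 CPM in leaf1, leaf23 and leaf41. It ranked 12 to 13 among the 341 sequences of each root library, 19 to 27 in flower and 13 to 23 in leaf. The root libraries lay above all flower libraries, but the log2 fold change of -1.42 ± 0.55 (SE) did not pass (adjusted p = 0.0607, edgeR). It passed with library totals (-1.74, adjusted p = 0.0355), with only the 6 libraries compared (-1.20, adjusted p = 0.0422) and without leaf41 (-1.21 ± 0.44, adjusted p = 0.0445). Flower and leaf overlapped (-0.45 ± 0.54, adjusted p = 0.532), and the sign of this difference turned to 0.09 with the authors' divisor as library size and to 0.40 without leaf41. Without leaf1 flower was called lower than leaf (-1.25, adjusted p = 0.0471).

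**Figure D2:**
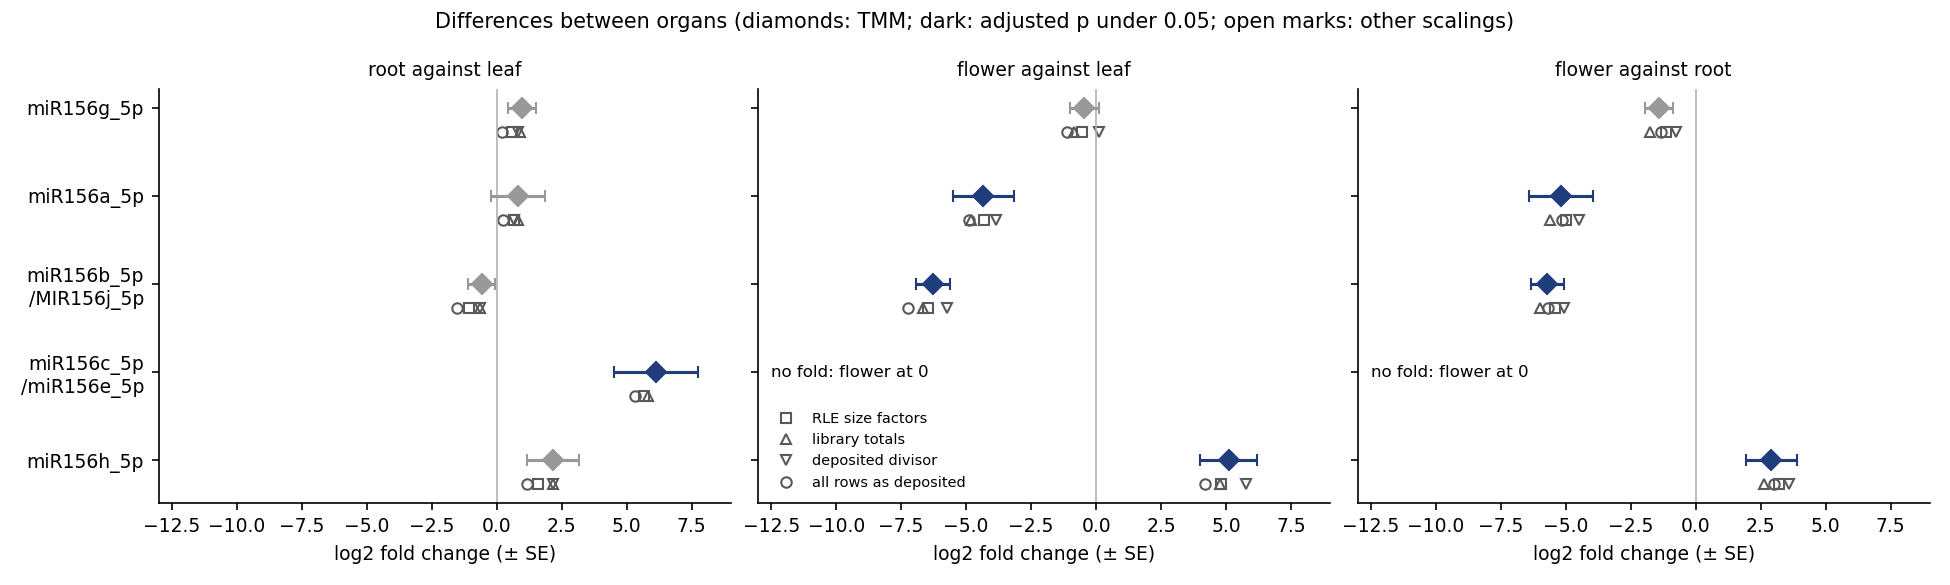
Log2 fold changes (x axis) of the miR156 5p sequences in the 3 comparisons, as diamonds with SE from the TMM-scaled fit, dark where the adjusted p was under 0.05, and open marks below each for the other 4 scalings where the sequence was tested. No fold change is drawn against flower where flower had no read, and miR156g_5p against leaf is the case where flower changes sign with the scaling (-0.45 with TMM, 0.09 with the deposited divisor).

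Between root and leaf, 1 of the 5 sequences passed, that of miR156c_5p and miR156e_5p, higher in root, where 29.5% of all tested sequences did so (18.2% higher and 11.4% lower). Under all 5 scalings none of the 5 was called (19.7% of all tested). The sequence of miR156c_5p and miR156e_5p could not be, since it was not tested with the authors' divisor. It was called under the 4 scalings that tested it (adjusted p = 0.0197 to 0.0245, edgeR). With DESeq2, which gave no adjusted p for miR156a_5p, 2 of the other 4 were called (53.1% of all sequences with an adjusted p), with all rows as deposited 2 (33.6%), and with the authors' divisor as library size 0 of the 4 tested (29.8%). The log2 fold change of miR156c_5p/miR156e_5p was 6.12 ± 1.61 (SE; adjusted p = 0.0245, edgeR), while the median of all tested sequences was 0.58. This sequence was in the test only because root held it, so its call is no support for a difference of the family. The leaf value rests on 4 reads in leaf41. Without leaf41, leaf had no read and no fold is given (adjusted p = 0.013), and the call was lost without leaf1 (adjusted p = 0.0551) or leaf23 (adjusted p = 0.0783). Without leaf41, 3 of the 5 passed (55.2% of all tested then did so), all higher in root. These were the same sequence, miR156a_5p (3.56 ± 0.69, adjusted p = 0.00357, in place of 0.84 ± 1.04, adjusted p = 0.504) and miR156g_5p (1.62 ± 0.52, adjusted p = 0.027, in place of 0.97 ± 0.54, adjusted p = 0.167). The root libraries were apart from all leaf libraries for 3 of the 5 (56.1% of all tested), higher for miR156h_5p and for miR156c_5p/miR156e_5p and lower for miR156b_5p/MIR156j_5p. The last of these, at -0.57 ± 0.52 (adjusted p = 0.378), passed with all rows as deposited (-1.53, adjusted p = 0.0478), with only the 6 libraries compared (-1.62, adjusted p = 0.0361) and with DESeq2 (-1.07, adjusted p = 0.0208), and was lower in root in each. It also passed, lower in root, without flower2 (-1.56, adjusted p = 0.0448, edgeR) or flower45 (-1.57, adjusted p = 0.0437, edgeR). The values of miR156h_5p (2.18, adjusted p = 0.111) passed under no scaling.

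Scaling moved these fold changes, because the median log2 fold change of all tested sequences ran from -1.07 to 0.46 for flower against leaf, from -0.34 to 0.64 for flower against root and from -0.36 to 0.58 for root against leaf over the 5 scalings. Leaving out a library moved the root against leaf median beyond that range. It was -0.61 without flower1 or flower2, -0.64 without flower45 and 0.82 without leaf41. The fits without a flower library hold the same root and leaf libraries. Without flower1, root against leaf was 0.13 for miR156g_5p (in place of 0.97), 1.02 for miR156h_5p (2.18) and -1.56 for miR156b_5p/MIR156j_5p (-0.57). Shares within the 5 sequences do not depend on the library size. They add up to the whole, however, so a larger share of 1 sequence goes with smaller shares of others. The mean level of miR156g_5p itself was lower in flower (4194 CPM) than in root (11250 CPM) or leaf (5741 CPM), with flower and leaf overlapping. miR156g_5p took 66.0%, 72.3% and 71.7% of the miR156 5p counts in root13, root23 and root33, 92.6%, 90.5% and 89.7% in flower1, flower2 and flower45, and 51.5%, 65.6% and 59.3% in leaf1, leaf23 and leaf41. The 3 organs did not overlap, with means of 70.0% ± 3.49, 90.9% ± 1.48 and 58.8% ± 7.08 (SD, n = 3 each). The exact permutation test gave p = 0.1 for each pair of organs (two-sided, the smallest that 3 libraries against 3 allow; adjusted p = 0.2 over 6 such tests). Seed GACAGAA took 41.1% ± 7.08 of the miR156 5p counts in leaf, 28.7% ± 4.37 in root and 2.56% ± 0.699 in flower, and here leaf41 (40.7%) lay between leaf1 (48.3%) and leaf23 (34.2%). miR156h_5p took 6.51% ± 1.07 in flower, 0.238% ± 0.0394 in root and 0.145% ± 0.126 in leaf.

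**Figure D3:**
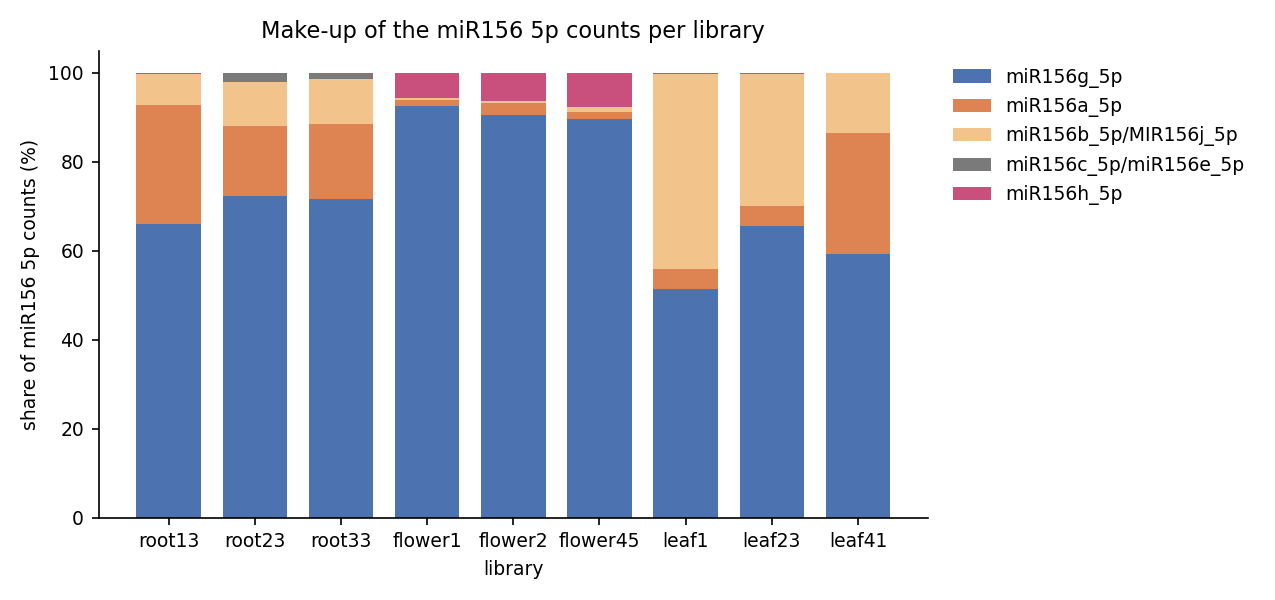
Share of each of the 5 sequences in the miR156 5p counts of each library (y axis, in %; x axis, library). miR156g_5p takes 89.7% to 92.6% in flower and 51.5% to 72.3% elsewhere, and leaf41 divides its GACAGAA reads between the 20-base and 21-base forms as the root libraries do.

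The 20-base and 21-base forms of seed GACAGAA were divided differently among the leaf libraries. Of the reads of both forms, the 20-base miR156a_5p took 9.39% in leaf1 (95% exact Clopper-Pearson interval 7.77 to 11.2), 12.9% in leaf23 (11.0 to 14.9) and 66.9% in leaf41 (65.5 to 68.3). It took 79.1%, 61.7% and 62.7% in root13, root23 and root33, and 76.7%, 86.0% and 60.0% in flower1, flower2 and flower45, the last resting on 70 reads (47.6 to 71.5). Leaf1 and leaf23 thus held mainly the 21-base form, and the other 7 libraries mainly the 20-base form. The means were 29.7% in leaf (11.1% without leaf41), 67.8% in root and 74.2% in flower, and the leaf libraries overlapped with both other organs. The exact permutation test, which cannot give a p below 0.1 here, gave two-sided p = 0.2 for flower and leaf, 0.3 for root and leaf and 0.7 for flower and root (adjusted p = 0.3, 0.36 and 0.7), and does not show that the organs were alike. Intervals cover counting error only, since reads without molecular identifiers are not independent molecules. In leaf1 and leaf23 the shorter form had fewer reads than the longer one that contains it.

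Arms under the same letter were compared for a, c, g, h and j. For these the 5p arm had more reads than the 3p arm in each library where either was read. For miR156g the 5p arm took 75.3% to 81.8% of both arms in root, with no overlap with leaf (93.8% to 100%) or flower (96.7% to 99.2%). For MIR156j it took 99.1% to 99.4% in root, 55.0% to 91.3% in leaf and 66.7% to 77.8% in flower. The 5p reads of MIR156j, however, are shared with miR156b, and those of miR156c with miR156e.

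Among the related miRNAs, the 3p arm of miR172 and the 5p arm of miR535 were set beside miR156 5p within each library, as ratios of summed counts. miR156 5p had 159.6, 150.6 and 69.8 counts per miR172 3p count in root13, root23 and root33, 10.3, 22.9 and 129.4 in leaf1, leaf23 and leaf41, and 1.19 in flower1, while in flower2 and flower45 miR172 exceeded it 1.60-fold and 1.28-fold. The log2 ratio was 6.89 ± 0.67 in root, 4.96 ± 1.87 in leaf (3.94 without leaf41) and -0.26 ± 0.47 in flower (SD, n = 3 each), with flower apart from the others and leaf41 among the root libraries. Of the 8 distinct miR172 3p sequences 3 passed the low-count filter. miR172f_3p, at 5288 ± 1155 CPM in flower, 67.6 ± 109.7 in root and 50.1 ± 18.5 in leaf, was higher in flower than in both (log2 6.29 and 6.71, adjusted p = 0.00835 and 0.00816, edgeR). The root libraries disagreed in its level, from 1.79 to 194.2 CPM. Flower against root was called in all 9 fits that left out a library, but its size ran from log2 5.77 to 10.04. MIR172l_3p was higher in flower than in leaf (log2 4.49, adjusted p = 0.00387) and in root than in leaf (2.52, adjusted p = 0.0351). The second call was made under 3 of the 5 scalings and in 1 of the 9 fits that left out a library (adjusted p up to 0.187; 2.05, adjusted p = 0.0553 without leaf41). miR172a_3p was lower than in leaf in both flower (-3.90, adjusted p = 0.00619) and root (-2.57, adjusted p = 0.0337, called in 5 of the 9 fits that left out a library, up to 0.101). Counted by comparison, 2 of the 3 tested were higher and 1 lower in flower than in leaf, 1 and 0 in flower than in root, and 1 and 1 in root than in leaf, where 35.6%, 39.4% and 29.5% of all tested sequences passed in either direction.

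Against miR535 5p the leaf libraries stood apart. The log2 ratio of miR156 5p to miR535 5p counts was -3.05 ± 0.71 in leaf (-3.45 without leaf41), -0.31 ± 0.07 in root and 0.14 ± 0.34 in flower (SD, n = 3 each), so that leaf1, leaf23 and leaf41 held 12.0, 9.93 and 4.74 miR535 5p counts per miR156 5p count. The main miR535 5p sequence, of miR535a_5p and miR535c2_5p, is printed for comparison with its seed in capitals.
miR535a_5p/miR535c2_5p: uGACAACGagagagagcacgc

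Its seed differs from both miR156 seeds. It stood at 65490 ± 8161 CPM in leaf, 12271 ± 1463 in root and 3532 ± 191.4 in flower (SD, n = 3 each), with the 3 leaf libraries apart from the rest. Of the 4 miR535 5p sequences, all tested, 3 were lower in flower than in leaf, 3 lower in flower than in root and 2 lower in root than in leaf, beside the same shares of all tested sequences. None was called higher with all 9 libraries, but without leaf41 miR535b_5p (log2 3.07, adjusted p = 0.00366, in place of 1.17, adjusted p = 0.294) and miR535d_5p (8.21, adjusted p = 0.00129, in place of 0.82, adjusted p = 0.695) were called higher in root than in leaf. Of the 2 lower in root, miR535c1_5p was called in 5 of the 9 fits that left out a library (adjusted p up to 0.0993). One of the 3 lower in flower than in leaf, miR535d_5p, was called through leaf41 (log2 -7.92, adjusted p = 0.029; -0.34, adjusted p = 0.837 without it). The difference of these ratios from organ to organ was given no test.

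**Figure D4:**
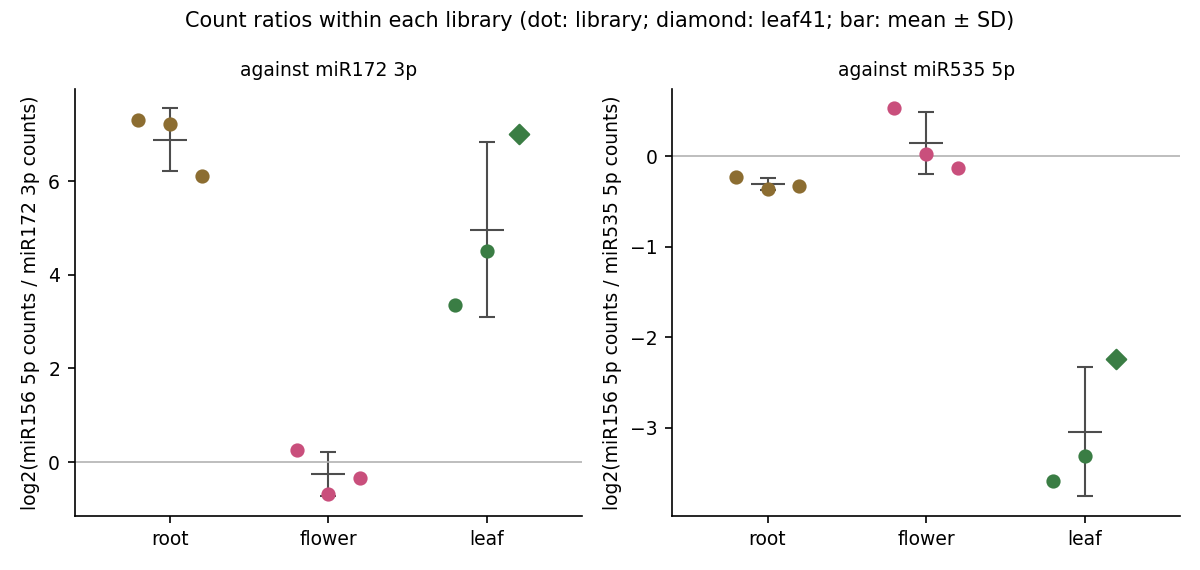
Log2 ratio of summed miR156 5p counts to summed miR172 3p counts (left) and to summed miR535 5p counts (right) in each library (y axis), by organ (x axis), with 1 dot per library, a diamond for leaf41, and the mean ± SD as a bar. Flower is lowest against miR172 (-0.68 to 0.25), leaf is lowest against miR535 (-3.59 to -2.24), and leaf41 is the highest leaf library in both panels.

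The sequences whose pattern over the 9 libraries was most like that of miR156g_5p were from other families. By the root mean square difference of centred log2 CPM, the nearest 5 were MIR482b (0.67), MIR169i_5p (0.67), miR166k_3p (0.68), MIR7782l_5p (0.70) and miR171g_5p (0.77), where the median of all other tested sequences was 1.66. The other miR156 5p sequences lay at 1.76 (miR156a_5p), 1.91 (miR156c_5p/miR156e_5p), 2.52 (miR156h_5p) and 2.55 (miR156b_5p/MIR156j_5p), all above that median. MIR482b, the most abundant of these 5, stood at 3272 ± 726.3 CPM in leaf, 4514 ± 456.5 in flower and 5619 ± 1680 in root (SD, n = 3 each). MIR169i_5p had few reads, at 6.51 ± 9.60 CPM in leaf, 1.13 ± 1.96 in flower and 17.5 ± 2.80 in root. Its log2 CPM, and so its likeness, depends on the prior count of 2. The same holds for miR156c_5p/miR156e_5p, which had no read in any flower library or in leaf1 and leaf23, and for miR156h_5p in leaf. This measure depends on the size of the differences between libraries as well as on their order.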

How the data were processed

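The organs were extracted with TRIzol and ribosomal RNA was removed before Illumina libraries were made, per the labels' protocols. How reads were trimmed, aligned and counted, and on which genome build, is not given in the sources used here. In the table, the deposited counts are whole numbers per listed miRNA, not normalised by the authors. The normalised score that the authors placed beside each count, called RPTM in the header and not defined there, is the count divided by 1 constant per library and rounded. It was used only to recover that divisor.

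Rows of the same sequence (T written as U) were joined, so that each read counts once. The 1 blank row was left out. edgeR 4.0.16 in R 4.3.3 was fitted to all 9 libraries with organ as the only factor (TMM, filterByExpr, glmQLFit and glmQLFTest), which tested 132 sequences holding 99.97% of the counts. SE was taken from the log2 fold change and its F statistic, as their ratio after taking the root of F. The floor for a count of 0 was 3 counts per library, or 3.40 to 6.47 CPM. Log2 CPM for correlations and likeness used a prior count of 2. Single shares were compared by exact permutation tests. The root against leaf test was also run on simulated counts with changes planted in root. No simulated library was set apart as leaf41 was, so that run does not bear on the calls that depend on leaf41.

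The members, the lists and the tests were chosen with earlier results of these data known. The named miRNAs were all members, of miR172 3p and miR535 5p the counts of calls and at most 3 sequences each by mean CPM, and the 5 sequences most like miR156g_5p. The 5 scalings were TMM, library totals, RLE size factors, TMM on all rows as deposited, and the divisor recovered from the authors' score. DESeq2 1.42.0, no low-count filter, only the 6 libraries compared and leaving out each library were the other alternatives. The division between 20-base and 21-base forms and the count of calls under all 5 scalings were added after the data were seen.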

Additional observations from a re-analysis of the deposited data

How the results depend on the processing

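Of the 5 sequences, the number called between root and leaf (1) was 2 with DESeq2 and with all rows as deposited, 0 with the authors' divisor and 0 under all 5 scalings together, where the sequence of miR156c_5p and miR156e_5p was not tested with the divisor. It ran from 0 to 3 when each library was left out in turn, with 0 without root23, root33, leaf1 or leaf23, 2 without flower2 or flower45, and 3 without leaf41. With only the 6 libraries compared it was 1, but of another sequence, miR156b_5p/MIR156j_5p, which was lower in root (-1.62). The number between flower and root (4) ran from 2 to 5, with 2 without root23 or without root33, and that between flower and leaf (3) from 2 to 4. Without root23 or root33 only 4 of the 5 were tested in any comparison, since the low-count filter left out miR156c_5p/miR156e_5p. DESeq2 gave no adjusted p for miR156a_5p. Signs turned where no call was made: without leaf1 root against leaf was -0.20 for miR156a_5p (lowest and highest without 1 library, -0.20 and 3.56) and -0.22 for miR156g_5p (-0.22 and 1.62), and flower against leaf of miR156g_5p was 0.09 with the authors' divisor and -1.25 to 0.40 without 1 library. The median of all tested sequences moved too. For root against leaf it was -0.27 without leaf1, in place of 0.58. For flower against leaf it was 0.46 with the authors' divisor, -0.53 without leaf1 and 0.37 without leaf41, in place of -0.14. The log2 ratio of summed levels was -1.13 for flower against root with the authors' divisor in place of -1.80, and -0.23 for root against leaf with all rows as deposited in place of 0.73; the cause was not tested. Counting all rows as deposited adds shared sequences again, which by construction moved the log2 ratio to miR535 5p to -0.86 in root and -0.75 in flower, and the miR156g_5p share to 63.6% in root and 46.2% in leaf. Over the single sequences, 201 of the alternative values kept their direction and side of the threshold, 9 lost the call, 11 gained it and 4 changed sign, leaving out miR156c_5p/miR156e_5p in flower and leaf without leaf41, where both were at 0. No paired analysis was possible because no 2 organs share more than 1 number in their library labels. Depth limits the sequence of miR156c_5p and miR156e_5p and miR156h_5p in leaf, each at 8 reads or fewer per library.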
